A study of Homo sapiens with 14 samples.

Results

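The genes described here are 37 genes of the lysosome and of autophagy, taken as a list of symbols by role; no value sets the membership, but the list was drawn up with earlier results of these data known. Of these, 36 had a row in the knockdown table of 16405 genes and 35 in the treatment table of 12325 genes. MITF had no row in either table, and TFEB had none in the treatment table. All of those with a row passed the filter on low counts. By role they are the regulators TFEB and TFE3, 3 lysosomal membrane proteins, 10 genes of hydrolases and of the saposin precursor PSAP, 8 subunits of the vacuolar proton pump (V-ATPase), 3 autophagy receptors, 4 proteins of the ATG8 family and 6 core autophagy proteins.

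The RNA came from Kasumi-1, an established line of acute myeloid leukemia myeloblasts that carries the RUNX1-RUNX1T1 fusion gene. In the knockdown experiment, cells received a scramble control hairpin (shCtrl, n = 3) or a hairpin against the RNA-binding protein gene RBPMS (shRBPMS, n = 3) by lentivirus for 48 h, and puromycin selection followed for 48 h. The treatment experiment set the solvent DMSO (n = 2) against RB98# (n = 2). RB98# is known only by this code name, and its dose and duration are missing from the labels. Both hairpin groups therefore share the infection and the puromycin. The 4 samples of the series that profile RBPMS-bound or m6A-marked RNA were left aside. Since no label states that replicates came from separate cultures, p-values here may reflect technical variation alone.

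Lysosomes are acid compartments in which hydrolases break down proteins, lipids and sugars, and the V-ATPase pumps in the protons that make them acid. Macroautophagy encloses cytoplasm in a double membrane and delivers it to the lysosome; the ATG8 proteins coat that membrane and bind the cargo receptors. Transcription factors of the MiT/TFE family, TFEB, TFE3 and MITF, bind E-box elements in front of many of these genes and move to the nucleus when the kinase mTORC1 is inactive.

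The promoters are shown here because the 6-letter core of that element, CACGTG, stood near the RefSeq start of several listed genes. The RNA of some of these genes differed in these experiments. Gene positions given further below come from GENCODE v29, and there the stretches of CTSA and ATP6V0D1 lie inside the gene. A RefSeq promoter (assembly GRCh38.p14, 250 bases before to 50 after the gene start, 300 bases in all) was matched to 28 of the 37 genes. The core, which reads the same on both strands, was present in 6 of the 28 (21.4%), against 7.26% of all 35116 promoters of that length. The longer form TCACGTGA, which contains the core and also reads the same on both strands, was present in 4 of the 28 (14.3%), against 0.980% of all promoters. Of 122 further lysosome and autophagy symbols, 91 had a promoter. The core was present in 21 of these (23.1%) and the longer form in 8 (8.79%). Pathway genes were counted by symbol and the background by promoter, so the units differ. The genes were also chosen from a pathway known for this element, so the shares are no test of enrichment. In the stretches below, all on the gene's own strand from 5′ to 3′, the capitals mark the core.
ATP6V0D1, chr16:67481199-67481228, minus strand: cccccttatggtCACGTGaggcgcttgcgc
CTSA, chr20:45891289-45891318, plus strand: ctgtCACGTGgcgccggagttCACGTGact
NEU1, chr6:31862930-31862959, minus strand: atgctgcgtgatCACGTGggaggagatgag
LAMP1, chr13:113297039-113297238, plus strand: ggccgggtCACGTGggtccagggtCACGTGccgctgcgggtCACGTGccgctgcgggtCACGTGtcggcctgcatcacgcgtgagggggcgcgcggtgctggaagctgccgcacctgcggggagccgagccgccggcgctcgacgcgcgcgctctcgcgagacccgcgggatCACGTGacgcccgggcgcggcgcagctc
MCOLN1, chr19:7522504-7522623, plus strand: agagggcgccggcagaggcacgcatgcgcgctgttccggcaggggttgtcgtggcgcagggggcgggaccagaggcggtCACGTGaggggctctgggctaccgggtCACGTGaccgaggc

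LAMP1 held 6 copies of the core in its promoter, of which the stretch above shows 5, MCOLN1 and CTSA held 2 each, and ATP6V0D1, CTSD and NEU1 held 1 each. The last copy in LAMP1 runs across the gene start itself, from base -1 to base 4. A match is a run of letters and not a measured binding site, and nothing about binding was read from it. Of the 6 genes, the blocked knockdown fit described below called ATP6V0D1, CTSA, CTSD and NEU1 higher, against 13.3% of all genes. The fit of group alone called ATP6V0D1, and NEU1 was not called with summed libraries (adjusted p = 0.245). The RB98# comparison called NEU1 higher, against 20.5% of all genes. Of 21 further pathway genes with the core, the blocked fit called ARSB, ATP6V1G1, BNIP3, CTSF and SCPEP1 lower, against 14.8% of all genes. It called CLCN7, LAMTOR1, SLC36A1 and SNAP29 higher, and the fit of group alone called only ARSB of the 21. With RB98#, BNIP3, FNIP1, GAA, RRAGB and SCPEP1 of these were called higher and LAMTOR1 lower.

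**Figure D1:**
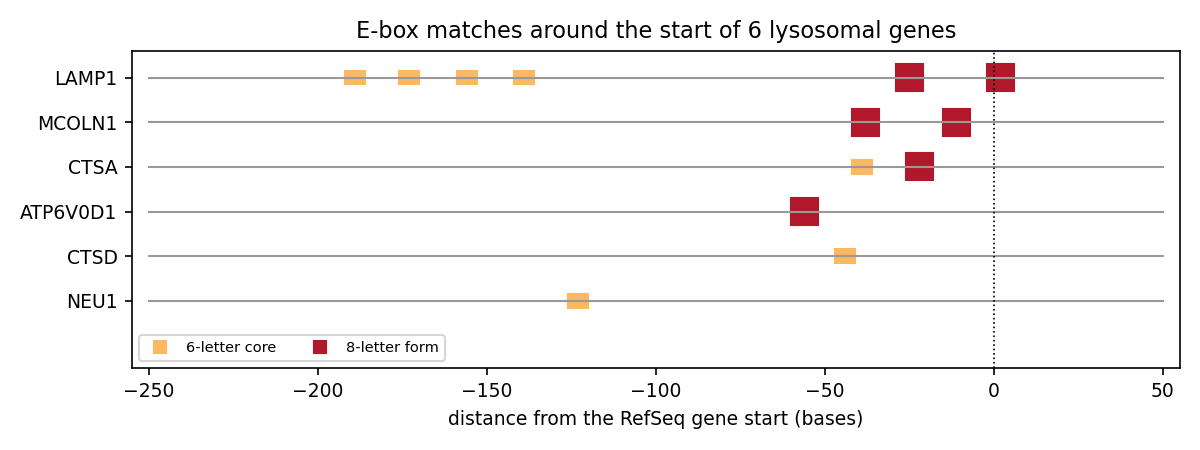
Position of the E-box core (orange) and of its longer form (red) in the promoters of the 6 listed genes that hold the core; the x axis is the distance from the RefSeq gene start in bases and each grey line is 1 promoter from 250 bases before to 50 after the start. In 5 of the genes a match lies close before the start; in NEU1 the only match lies from base -126 to base -121.

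Libraries held 24027255 to 34375418 counts in the knockdown experiment and 13854281 to 15347684 in the treatment experiment. The listed genes together took 0.270% to 0.338% of the counts of a knockdown library and 0.299% to 0.322% of a treatment library. Levels are given as CPM, a gene's count scaled to a common library total. RBPMS had 20.4, 7.24 and 7.39 CPM in shCtrl and 2.53, 3.34 and 3.08 CPM in shRBPMS, with no overlap (log2 change -1.96, adjusted p = 0.0846 in edgeR's quasi-likelihood test; -1.79, adjusted p = 0.0106 with the replicate number as a block). Replicate 1 of both hairpins stood apart: mitochondrially encoded genes took 15.2% and 13.2% of its counts against 6.20% to 6.95% in replicates 2 and 3, and the sample descriptions also set replicate 1 (label set 1) apart from replicates 2 and 3 (label set 2). All 7 myeloblast markers were present, with summed levels of 14421 to 19501 CPM in shCtrl and 16273 to 17721 in shRBPMS, and of 15149 to 15231 CPM in DMSO and 16844 to 17832 with RB98#. Of 10 monocyte and macrophage markers 2 had a row in the knockdown table, summing to 3.88 to 5.68 CPM in shCtrl and 5.90 to 7.34 in shRBPMS, and 3 in the treatment table, summing to 28.1 to 30.7 CPM in DMSO and 33.7 to 36.6 with RB98#. CD14, ITGAM and CD163 had no row in either. With RB98#, CSF1R fell from 1.45 to 0.606 CPM (log2 -1.24, adjusted p = 0.0426 in the quasi-likelihood test). LYZ (log2 0.24) and CD68 (0.42) were not called there with group alone. In the knockdown neither CSF1R (log2 1.45) nor LYZ (0.35) was called with group alone, and CSF1R rose with the block (log2 1.47, adjusted p = 0.0142). Among the myeloblast markers, CD33 rose from 15.3 ± 2.68 to 50.0 ± 9.54 CPM (SD, n = 3) in the knockdown. The other 6 were not called with group alone, and RUNX1T1 fell with the block (300 ± 163 to 177 ± 54.9 CPM, log2 -0.68, adjusted p = 0.00535). With RB98#, CD33 fell from 24.4 ± 0.673 to 13.7 ± 2.48 CPM (SD, n = 2), CD34 and KIT also fell, and MPO, ELANE, AZU1 and RUNX1T1 rose. Of the 4 T cell markers measured in the knockdown, CD3D (log2 -1.91) and CD3E (-3.08) fell, and CD4 (0.22) and CD8A (-0.15) were not called. Their summed level was 59.2 to 84.9 CPM in shCtrl and 47.4 to 117 CPM in shRBPMS. The part of these marker and mitochondrial values in the results below was not tested, and in bulk RNA fewer cells of a type and less RNA per cell cannot be told apart.

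Levels between genes were compared per kilobase of GENCODE v29 exon, as CPM divided by the summed length of a gene's exons. In shCtrl the highest were PSAP, the precursor of the saposins that help degrade sphingolipids, at 149 CPM per kilobase, the cathepsin CTSZ at 124 and the membrane glycoprotein LAMP1 at 84.9. The lowest were the receptor OPTN at 0.528 and TFEB at 0.122. In DMSO the same 3 genes led, with PSAP at 135, CTSZ at 121 and LAMP1 at 61.0 CPM per kilobase, and OPTN was lowest at 0.201. TFE3 stood at 4.70 CPM per kilobase in shCtrl and 4.77 in DMSO. GABARAP, an ATG8 protein, differed most between the control groups of the 2 experiments, with 1.15 CPM per kilobase in shCtrl and 30.5 in DMSO; CTSD went from 10.4 to 37.1 and HEXA from 2.53 to 8.30. In GENCODE v29 another gene on the same strand shares 30.5% of the exon bases of GABARAP, 41.7% of those of CTSD and 4.89% of those of HEXA. The partners had no row in either table, so how reads of these 3 genes were assigned in each table is uncertain. Reads of 5 other listed genes cannot be told apart from those of an antisense neighbour if counting ignored strand, which the sources used here do not state: WIPI1 shares 24.3% of its exon bases with ARSG, SQSTM1 20.7% with MRNIP, ATG7 18.1% with VGLL4, CTSA 17.7% with NEURL2 and BECN1 12.4% with CNTD1. MAP1LC3B and GABARAPL1 each have a near-identical copy elsewhere in the genome, which had no row here.

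The knockdown comparison asks how RNA levels differ when RBPMS is reduced. Proton pump subunit ATP6V0D1 was 1.94-fold higher in shRBPMS, TFE3 was 1.59-fold, CTSA 1.52-fold and GLA 1.51-fold higher, and ATP6V1A, MAP1LC3B, WIPI1 and GABARAPL2 were lower. All 4 ATG8 genes had a negative log2 change, against 7801 of all 16215 genes, though that of GABARAP was -0.07 (SE 0.41). Of the 10 hydrolase genes 8 had a positive one, against 8414 of all genes, and CTSZ (0.05) and HEXA (0.07) among them lay near 0. In edgeR's quasi-likelihood test with Benjamini-Hochberg adjustment over 16215 genes, 1 of the 36 genes was called higher, where 0.629% of all genes were, and 0 were called lower, where 1.34% of all genes were. At an unadjusted p under 0.05 there were 5 higher and 6 lower, against 1204 and 1529 of all 16215 genes, and DESeq2 called 4 higher and 4 lower, against 3.21% and 5.09% of all genes. The authors' deposited table has 4 listed genes higher and 4 lower at an adjusted p under 0.05, where 11.3% of all genes passed in either direction.

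The libraries were taken as paired by replicate number, because the deviations of same-numbered libraries correlated (0.782, 0.622 and 0.637). Replicate 1 stood apart in both groups, so these correlations cannot show that replicates 2 and 3 pair by number. Values of listed genes are given below with group alone, with the replicate number as a block, or with both. Only ATP6V0D1 of them was called with group alone. Named further genes are given with group alone. The blocked fit called 11 of the 36 genes higher, against 13.3% of all genes, and 6 lower, against 14.8% of all genes. When replicates 2 and 3, which are close to each other (chi-square per degree of freedom 2.98 in both groups, against 188 and 130 for replicates 1 and 2), were summed and the label set was a covariate, 6 genes were called higher and 5 lower, against 7.73% and 8.62% of all genes. With the label set as a covariate and no summing, 12 were called higher and 9 lower, against 17.5% and 18.4%: the 17 of the blocked fit with LAMP1 higher (adjusted p = 0.0386) and CTSC (0.0174), GABARAPL1 (0.0313) and ATG5 (0.0298) lower. In the fit of summed libraries the 6 were TFE3, CTSA, CTSD, GLA, ATP6V0D1 and ATG7, and the 5 were ATP6V1A, OPTN, GABARAPL2, MAP1LC3B and WIPI1. In 8 genes every shRBPMS library was above every shCtrl library, against 12.3% of all genes, in 8 genes every shRBPMS library was below, against 13.6%, and in 20 the groups overlapped. The median log2 change was 0.07 over the listed genes and 0.02 over all genes tested. Of the 36 genes 30 had the same sign in both label sets, against 74.1% of all genes. In label set 2 alone, a fit added after the data had been seen that shares these libraries, 42.2% of all genes were called, the 17 genes of the blocked fit among them.

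**Figure D2:**
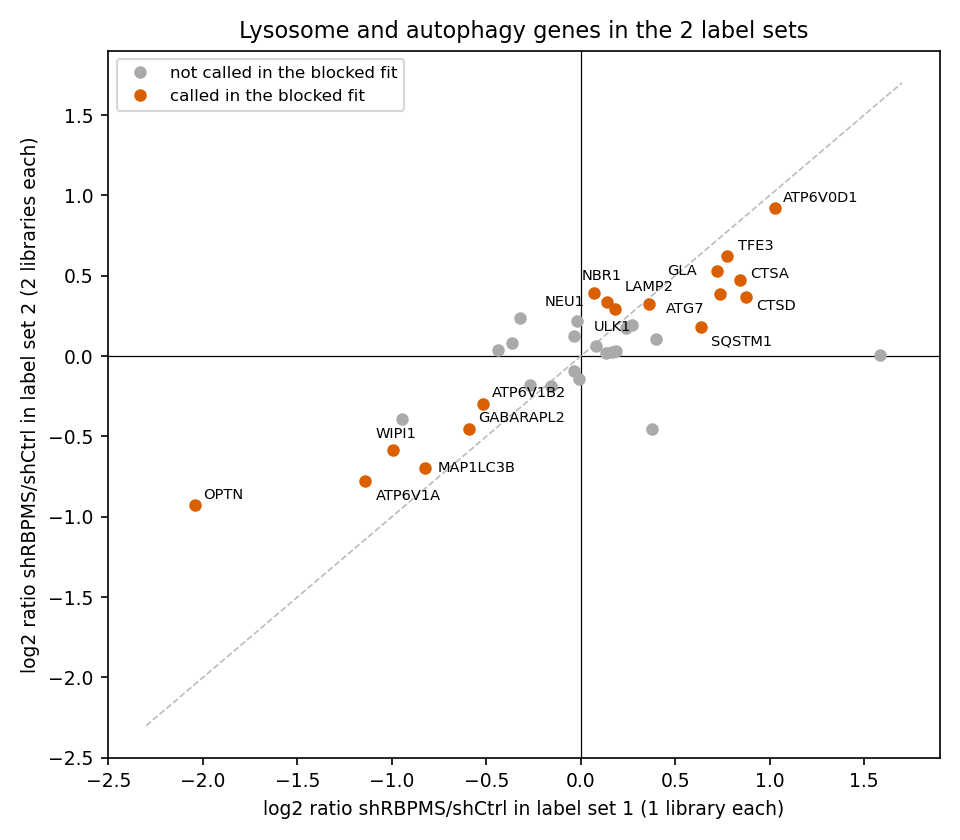
Log2 ratio of shRBPMS to shCtrl in label set 1 (x axis, replicate 1 of each group) and label set 2 (y axis, replicates 2 and 3 of each group) for the 36 listed genes; orange points are genes called in the blocked fit, grey points are the others, and the dashed line is equality. The 17 orange points, chosen by a fit of these same libraries, have the same sign on both axes, and the grey point farthest to the right is CTSL, with 1.58 in set 1 and 0.01 in set 2.

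Of the regulators, TFEB was barely detected, with 0.713, 0.359 and 0.999 CPM in shCtrl and 0.571, 0.527 and 1.07 CPM in shRBPMS. The groups overlapped, and no difference was detectable at this depth (log2 change 0.06, SE 0.48). TFE3, whose gene lies on chromosome X from 49028726 to 49043486 (GRCh38), had 16.7, 23.4 and 20.2 CPM in shCtrl and 28.5, 33.2 and 33.9 CPM in shRBPMS. Every shRBPMS library was above every shCtrl library. The log2 change was 0.66 (SE 0.17, adjusted p = 0.105), and it passed with the block (0.67, SE 0.09, adjusted p = 0.00245).

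Among the lysosomal membrane proteins, LAMP2, which is also needed for chaperone-mediated autophagy, had 157, 133 and 136 CPM in shCtrl and 202, 177 and 159 CPM in shRBPMS. The groups did not overlap, though the highest control and the lowest knockdown library lay close together. LAMP2 rose in the blocked fit (log2 0.34, adjusted p = 0.00899), but was not called without the block (adjusted p = 0.286) or with summed libraries (0.0718). LAMP1 had 503, 480 and 478 CPM against 664, 522 and 510 CPM, with most of the difference in replicate 1, and was not called with group alone or with the block (blocked adjusted p = 0.0895). MCOLN1, a lysosomal calcium channel, had a log2 change of -0.10 (SE 0.14), with overlapping libraries.

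Among the hydrolases, CTSA, the protective protein that stabilises neuraminidase and beta-galactosidase (chromosome 20, 45890144 to 45898820), had 81.8, 89.8 and 88.8 CPM in shCtrl and 147, 124 and 124 CPM in shRBPMS. All 3 knockdown libraries lay well above the controls, and the log2 change was 0.60 (SE 0.12, adjusted p = 0.0658), with 0.60 and adjusted p = 0.00379 in the blocked fit. GLA, the alpha-galactosidase A that is deficient in Fabry disease (chromosome X, 101397803 to 101408012), had 28.0, 30.8 and 33.0 CPM in shCtrl and 46.3, 46.6 and 45.7 CPM in shRBPMS. The knockdown libraries of GLA lay within 1 CPM of each other and above all controls (log2 0.59, SE 0.12, adjusted p = 0.0663; blocked adjusted p = 0.00255). The protease CTSD had 21.6, 39.7 and 36.6 CPM against 39.6, 50.7 and 47.6 CPM. Its groups overlapped across replicate numbers, but within each number the knockdown library was the higher of the pair, and CTSD rose in the blocked fit (log2 0.53, adjusted p = 0.0143). NEU1, the lysosomal sialidase, had 36.5, 38.3 and 40.2 CPM against 40.2, 50.4 and 48.8 CPM. The difference lay mostly in replicates 2 and 3 (log2 0.27, blocked adjusted p = 0.0372; 0.245 with summed libraries). The other 6 genes of this role were not called with group alone or with the block, with blocked log2 changes from -0.17 for CTSC, a protease that activates granule serine proteases, to 0.49 for CTSL.

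Of the 8 subunits of the proton pump, the blocked fit called 1 higher and 2 lower, against 13.3% and 14.8% of all genes. ATP6V0D1, the d subunit that joins the central stalk to the membrane ring (chromosome 16, 67438014 to 67481237), had 43.1, 42.3 and 44.6 CPM in shCtrl and 87.8, 80.6 and 84.1 CPM in shRBPMS. The groups were far apart and both were tight, and this was the call made without the block (log2 0.96, SE 0.11, adjusted p = 0.0233; 4.42e-04 with it). Leaving out shCtrl replicate 1 kept the call; it was lost in the fits that left out shCtrl replicate 2, shCtrl replicate 3 or any of the shRBPMS replicates, with log2 changes from 0.93 to 0.99 and only 0 to 37 genes called among all those tested. ATP6V1A, the catalytic subunit of the peripheral sector (chromosome 3, 113747019 to 113812056), had 82.5, 56.1 and 59.0 CPM in shCtrl and 37.4, 34.2 and 33.0 CPM in shRBPMS. Every knockdown library was lower than every control, and replicate 1 of shCtrl was highest of all. The log2 change was -0.92 (SE 0.18, adjusted p = 0.0586), it passed with the block (-0.90, adjusted p = 0.00116), and without shCtrl replicate 1 it passed without the block (-0.73). ATP6V1B2, the regulatory partner of ATP6V1A, had 87.4, 99.5 and 101 CPM against 61.1, 81.2 and 82.2 CPM. Its groups did not overlap, and it fell in the blocked fit (log2 -0.37, adjusted p = 0.00988) but not with summed libraries (0.0534). The other 5 pump genes, ATP6V0E1, ATP6V1C1, ATP6V1D, ATP6V1H and the accessory subunit ATP6AP1, had blocked log2 changes from -0.12 to 0.19, and their groups overlapped.

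Among the receptors, OPTN, which carries ubiquitin-tagged mitochondria and bacteria to the autophagosome, had 4.37, 1.72 and 2.05 CPM in shCtrl and 1.06, 1.02 and 0.966 CPM in shRBPMS. The groups did not overlap, and the size of the difference depended on shCtrl replicate 1 (log2 -2.04 in label set 1 and -0.93 in label set 2; blocked -1.31, SE 0.29, adjusted p = 0.0168). SQSTM1, the receptor p62, had 52.1, 104 and 101 CPM against 81.0, 115 and 117 CPM. Label set 1 lay below label set 2 in both groups, and SQSTM1 rose in the blocked fit (log2 0.33, adjusted p = 0.0471; 0.0625 with summed libraries). NBR1, a receptor related to p62, had a blocked log2 change of 0.29 (adjusted p = 0.0447; 0.278 with summed libraries), with overlapping groups.

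Of the ATG8 family, MAP1LC3B, the LC3 protein commonly used to follow autophagosomes (chromosome 16, 87383995 to 87404779), had 46.7, 34.2 and 33.9 CPM in shCtrl and 26.4, 20.7 and 21.5 CPM in shRBPMS. The highest knockdown library was below the lowest control (log2 -0.74, SE 0.19, adjusted p = 0.0996; blocked -0.74, adjusted p = 0.00109). GABARAPL2 had 37.7, 44.1 and 45.8 CPM against 25.0, 34.6 and 31.2 CPM. Its groups did not overlap, and it fell in the blocked fit (log2 -0.50, adjusted p = 0.00508). GABARAPL1 had a blocked log2 change of -0.57 (adjusted p = 0.0676) and lower libraries throughout, and GABARAP, at 1.37 to 4.00 CPM, had -0.16 (SE 0.27).

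The core autophagy genes were mixed. WIPI1, which binds the lipid PI3P on the forming membrane (chromosome 17, 68420948 to 68457513), had 25.5, 17.4 and 16.2 CPM in shCtrl and 12.8, 10.8 and 11.5 CPM in shRBPMS. Every knockdown library was below every control (log2 -0.75, SE 0.21, adjusted p = 0.135; blocked -0.72, adjusted p = 0.00560). ATG7, the enzyme that activates ATG8 proteins for lipid attachment, had 18.3, 27.9 and 28.6 CPM against 30.5, 35.9 and 38.0 CPM. Its groups did not overlap (blocked log2 0.50, adjusted p = 0.00953). ULK1, the kinase that starts autophagy, had 88.8, 115 and 116 CPM against 101, 135 and 148 CPM. The groups overlapped through replicate 1, and ULK1 rose in the blocked fit (log2 0.26, adjusted p = 0.0243; 0.216 with summed libraries). ATG5, ATG16L1 and BECN1 were not called with group alone or with the block, with blocked log2 changes of -0.21, 0.22 and 0.07.

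**Figure D3:**
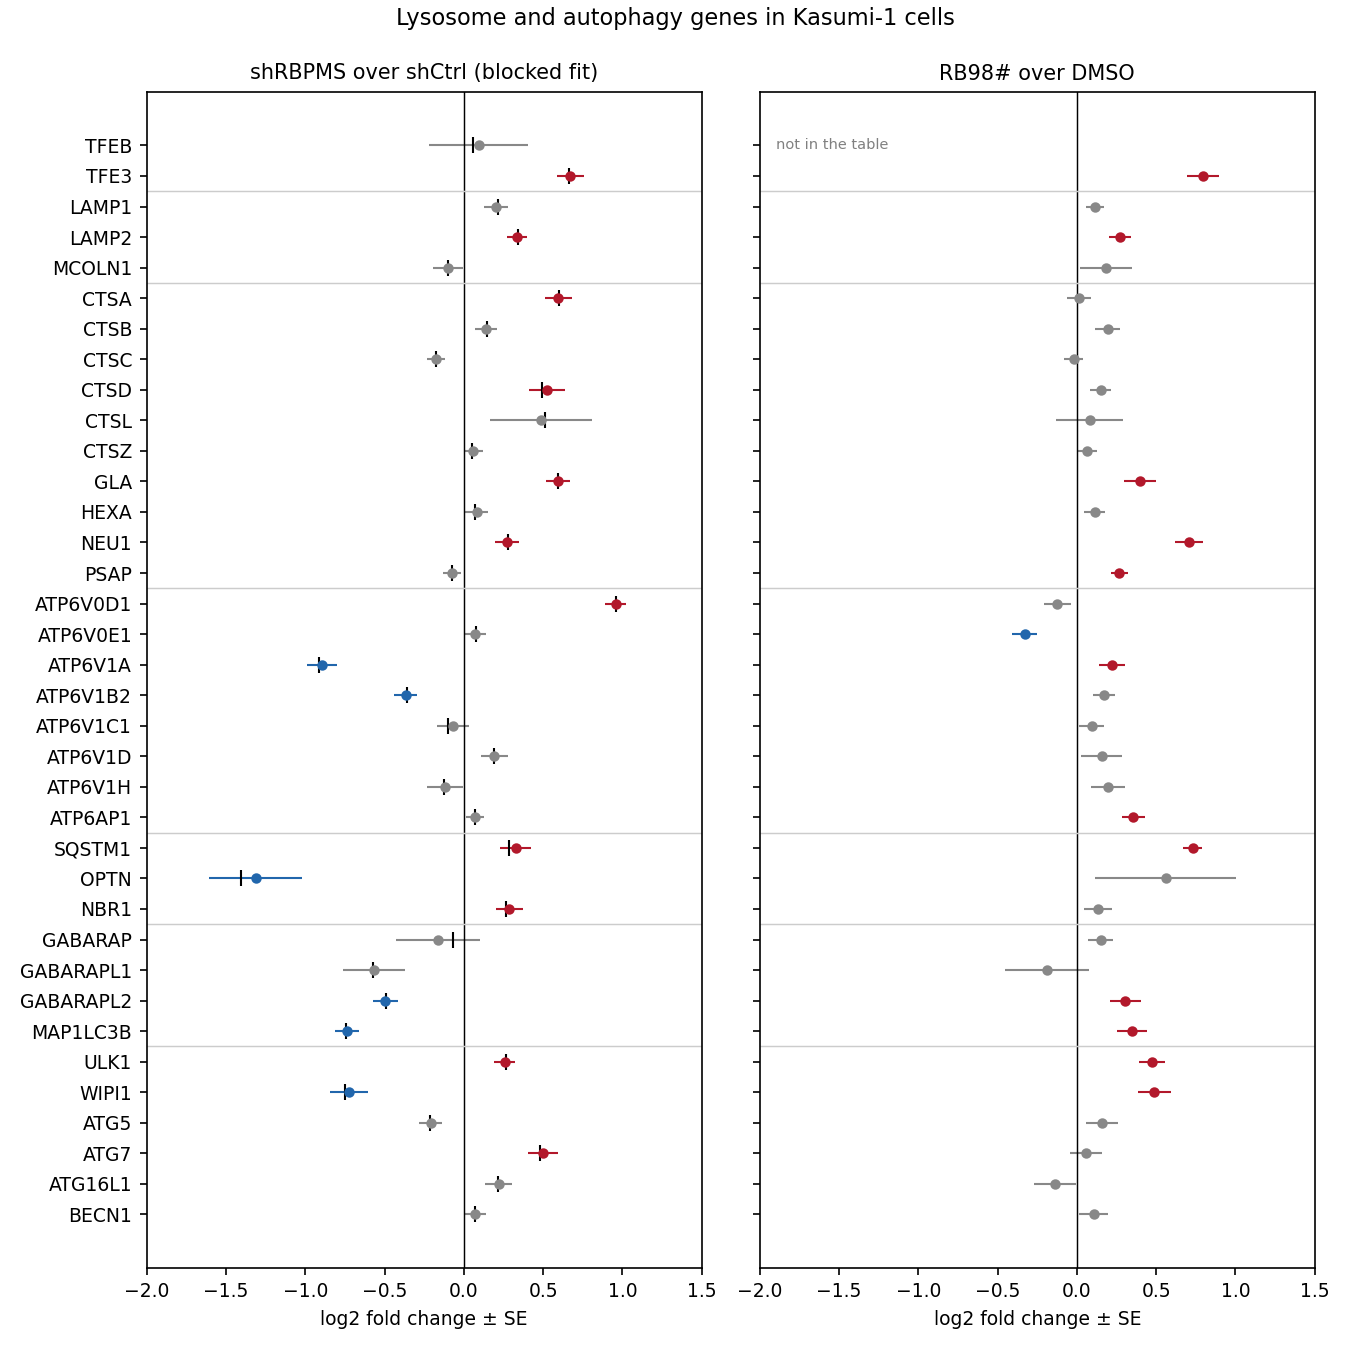
Log2 fold change ± SE of each listed gene, left for shRBPMS over shCtrl and right for RB98# over DMSO, with grey lines between roles; red points were called higher, blue lower and grey not called at an adjusted p under 0.05, and on the left the points come from the blocked fit and the black ticks from the fit of group alone. The right panel has 12 red points and 1 blue point, and the left 11 red and 6 blue.

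The level of the listed genes within a group also differed between the label sets. In shCtrl 11 of the 36 genes differed by more than 0.5 on the log2 scale between label set 1 and label set 2. No share over all genes was computed for this count. Over all genes, shCtrl replicates 1 and 2 also differed far more than replicates 2 and 3 (chi-square per degree of freedom 188 against 2.98). SQSTM1 was lower in set 1 by a log2 difference of -0.97, CTSL by -0.86, CTSD by -0.82, CTSZ by -0.67 and ATG7 by -0.62. OPTN was higher in set 1 by 1.21, ATP6V1C1 by 0.68, WIPI1 by 0.61, NBR1 by 0.55 and ATP6V1A by 0.52. HEXA completed the count with -0.56. Several of these differences were as large as or larger than the difference between the hairpins.

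Other genes of the pathway, from a list of 122 symbols, were examined beside these. Of the 113 with a row in the knockdown table, 5 were called higher and 1 lower, against 0.629% and 1.34% of all genes. The blocked fit called 31 higher and 13 lower, against 13.3% and 14.8% of all genes. SMPD1, the acid sphingomyelinase, rose from 3.22 ± 0.408 to 12.3 ± 3.90 CPM (log2 1.93, adjusted p = 0.0281). RRAGD, a Rag GTPase that recruits mTORC1 and the MiT/TFE factors to the lysosome, rose from 17.3 ± 1.55 to 37.9 ± 6.94 CPM (1.13, adjusted p = 0.0345). ATG9A, which supplies membrane to the forming autophagosome, rose from 14.9 ± 1.15 to 26.0 ± 1.15 CPM (0.80, adjusted p = 0.0417). The lysosomal membrane protein TMEM192 rose from 25.0 ± 2.16 to 43.2 ± 2.86 CPM (0.79, adjusted p = 0.0417). ARSB, a sulfatase of glycosaminoglycan breakdown, fell from 42.6 ± 2.06 to 21.2 ± 2.50 CPM (0.498-fold, adjusted p = 0.0281; SD, n = 3 throughout). None of these groups overlapped. Without replicate 2 or 3 of either hairpin, or without shRBPMS replicate 1, edgeR called 0 of the 113 in either direction, with 15 to 23 higher and 4 to 9 lower at an unadjusted p under 0.05.

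The treatment comparison asks how RNA levels differ between RB98# and its solvent. More of the listed genes were higher than lower with RB98#. TFE3 was 1.73-fold higher, the receptor SQSTM1 1.66-fold, the sialidase NEU1 1.63-fold, WIPI1 1.40-fold and ULK1 1.39-fold, while the pump subunit ATP6V0E1 was lower. In edgeR's quasi-likelihood test with Benjamini-Hochberg adjustment over 12324 genes, 12 of the 35 genes rose, against 20.5% of all genes, and 1 fell, against 17.3% of all genes. DESeq2 called 10 higher and 1 lower, against 15.2% and 11.3% of all genes, and the authors' deposited table has 9 higher and 1 lower, where 22.2% of all genes passed. In 21 of the 35 both RB98# libraries were above both DMSO libraries, against 34.3% of all genes, in 3 both were below, against 34% of all genes, and in 11 the groups overlapped. The median log2 change was 0.16 over the listed genes and 0.00 over all genes tested. With 2 libraries a group, each SD rests on 1 difference. The numbers of calls over all genes ranged from 2731 to 5028 when 1 library was left out, against 4659 with all 4.

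TFE3 had 20.2 and 20.6 CPM in DMSO and 35.8 and 35.1 CPM with RB98#. The libraries of each group were nearly equal and the groups far apart (log2 0.79, SE 0.10, adjusted p = 1.31e-06). Of the membrane proteins, LAMP2 had 129 and 125 CPM against 164 and 142 CPM. Its groups did not overlap (log2 0.27, adjusted p = 0.00354), and the call was lost without DMSO replicate 2 (0.25). LAMP1 (log2 0.11, adjusted p = 0.112) and MCOLN1 (0.18, adjusted p = 0.407) were not called; their promoters hold 6 and 2 copies of the E-box core. LAMP1 passed without RB98# replicate 1 (0.13).

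Of the 10 hydrolase genes 3 rose, against 20.5% of all genes. NEU1 had 36.4 and 36.2 CPM in DMSO and 60.2 and 58.4 CPM with RB98#, and the groups were far apart (log2 0.71, SE 0.09, adjusted p = 6.42e-07). PSAP had 438 and 437 CPM against 527 and 527 CPM (log2 0.27, SE 0.05, adjusted p = 3.40e-04). GLA had 31.3 and 38.9 CPM against 46.7 and 46.0 CPM. The DMSO libraries of GLA were the less even pair, the groups did not overlap (log2 0.40, SE 0.10, adjusted p = 0.00293), and the call was lost without DMSO replicate 1 (0.25). CTSA, the neuraminidase partner that was higher in shRBPMS, had 87.9 and 80.3 CPM against 84.6 and 85.3 CPM, with the RB98# libraries between the DMSO libraries (log2 0.01, SE 0.07). The other 6, CTSB, CTSC, CTSD, CTSL, CTSZ and HEXA, had log2 changes from -0.02 to 0.20; CTSB passed without RB98# replicate 1 (0.27) and CTSD without RB98# replicate 2 (0.15).

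Among the pump genes, ATP6AP1 had 114 and 108 CPM in DMSO and 133 and 152 CPM with RB98# (log2 0.35, SE 0.07, adjusted p = 3.48e-04). ATP6V1A had 72.4 and 73.5 CPM against 93.0 and 76.9 CPM. The difference came mostly from RB98# replicate 1 (log2 0.22, adjusted p = 0.0383): without it the log2 change was 0.06, the call was also lost without DMSO replicate 1 (0.21) or 2 (0.23), and DESeq2 gave an adjusted p of 0.127. ATP6V0E1, a small membrane-sector subunit, had 68.1 and 64.3 CPM against 52.8 and 52.4 CPM. Both RB98# libraries were lower and nearly equal (log2 -0.33, SE 0.08, adjusted p = 0.00239), and the call was lost without DMSO replicate 1 (-0.29). ATP6V0D1 had 54.5 and 57.1 CPM against 51.1 and 51.3 CPM; the groups did not overlap, and the log2 change of -0.12 (SE 0.08) was not called. ATP6V1B2, ATP6V1C1, ATP6V1D and ATP6V1H had log2 changes from 0.09 to 0.19 and were not called, though ATP6V1B2 passed without RB98# replicate 2 (0.20).

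SQSTM1 had the smallest adjusted p of the listed genes, with 119 and 118 CPM in DMSO and 199 and 193 CPM with RB98#. The groups were far apart relative to their spread (log2 0.73, SE 0.06, adjusted p = 1.75e-09). OPTN, at 0.751 and 1.32 CPM against 1.09 and 2.02 CPM, overlapped between groups (log2 0.56, SE 0.45), and NBR1 had 0.13 (SE 0.09, adjusted p = 0.243). Of the ATG8 genes, MAP1LC3B had 32.8 and 35.0 CPM against 44.9 and 41.2 CPM, without overlap (log2 0.35, SE 0.09, adjusted p = 0.00530), and its call was lost without DMSO replicate 1 (0.30). GABARAPL2 had 36.0 and 31.7 CPM against 44.3 and 39.1 CPM. Its groups did not overlap (log2 0.30, adjusted p = 0.0175), and the call was lost in DESeq2 (adjusted p = 0.0830) and without DMSO replicate 2 (0.21) or RB98# replicate 1 (0.20). GABARAP (0.15) and GABARAPL1 (-0.19) were not called, and GABARAP passed without RB98# replicate 2 (0.21).

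Of the core autophagy genes, WIPI1 had 21.2 and 21.1 CPM in DMSO and 29.4 and 29.9 CPM with RB98#, with each pair nearly equal (log2 0.49, SE 0.11, adjusted p = 7.16e-04). ULK1 had 54.8 and 58.6 CPM against 74.3 and 83.3 CPM. Its groups did not overlap (log2 0.47, SE 0.08, adjusted p = 6.72e-05). ATG5, ATG7, ATG16L1 and BECN1 had log2 changes of 0.16, 0.06, -0.14 and 0.10 and were not called, and ATG5, part of the conjugation machinery, passed without RB98# replicate 2 (0.26).

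**Figure D4:**
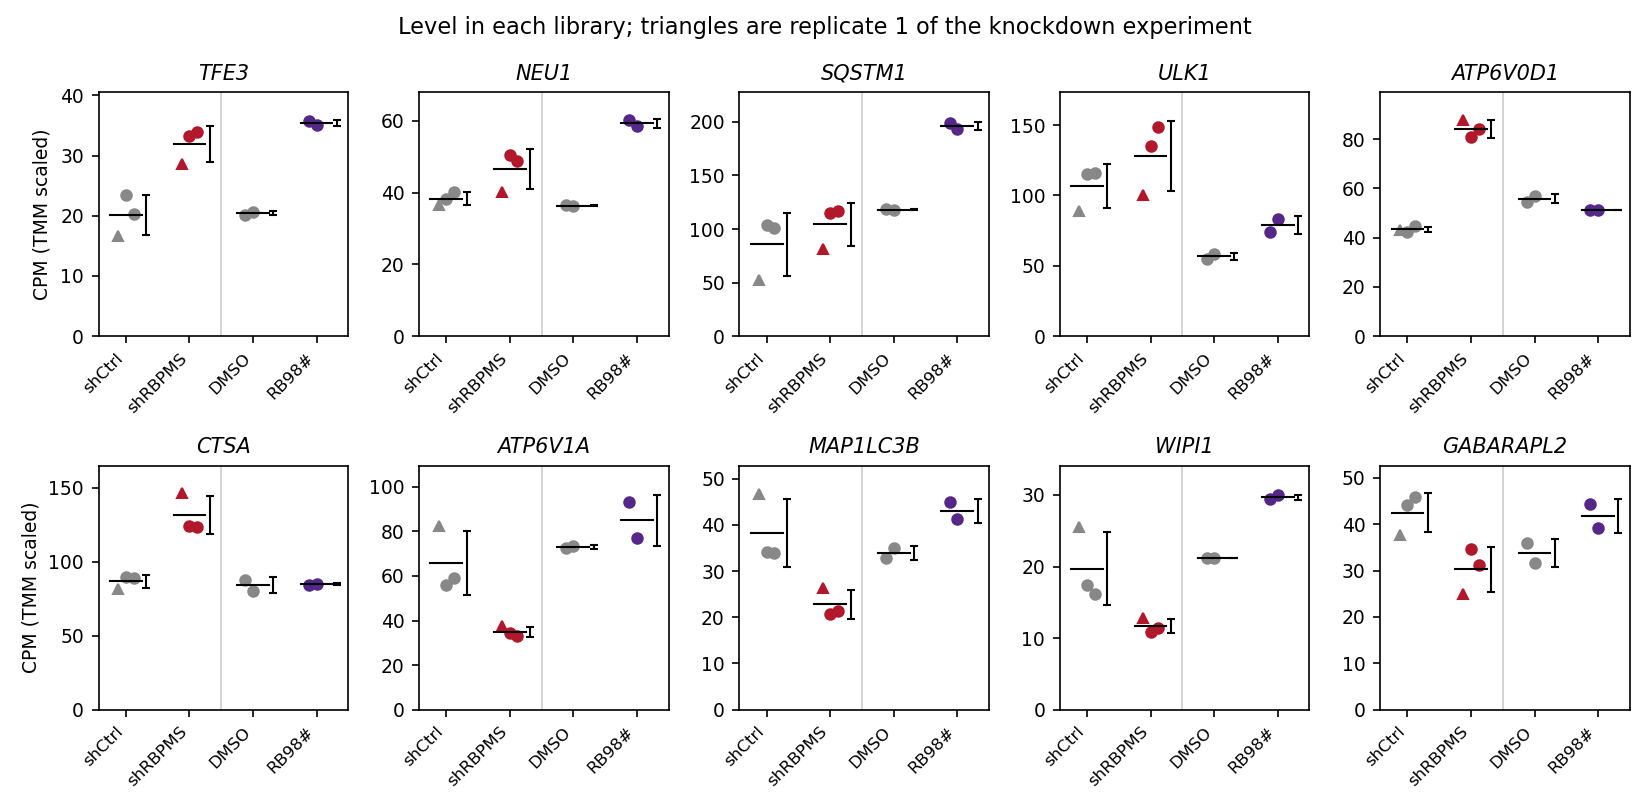
Level in CPM (linear axis from 0, scaled within each experiment) of 10 listed genes in every library; each point is a library, triangles are replicate 1 of the knockdown experiment, horizontal lines are group means and the bars beside them are ± SD. TFE3 is higher in both shRBPMS and RB98# than in the matching controls, and ATP6V1A, MAP1LC3B, WIPI1 and GABARAPL2 are lower in shRBPMS and higher with RB98#.

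Of the 110 further pathway genes with a row in the treatment table, 29 rose and 7 fell, against 20.5% and 17.3% of all genes. NPC1, which exports cholesterol from the lysosome, rose from 34.6 ± 0.958 to 65.1 ± 0.967 CPM (log2 0.91, adjusted p = 9.69e-09). FNIP1, a partner of folliculin in the control of TFE3, rose from 58.4 ± 2.29 to 90.8 ± 8.06 CPM (0.64, adjusted p = 1.01e-06). ATG2A, a lipid transfer protein of the forming autophagosome, rose from 27.4 ± 0.435 to 40.2 ± 4.16 CPM (0.55, adjusted p = 1.17e-04). The Rag GTPase RRAGB rose from 10.0 ± 0.928 to 14.5 ± 0.140 CPM (0.53, adjusted p = 0.00532). RRAGD fell from 22.2 ± 3.53 to 15.7 ± 1.02 CPM (-0.51, adjusted p = 0.00340). The glycosaminoglycan hydrolase NAGLU fell from 22.1 ± 1.22 to 15.9 ± 0.856 CPM (-0.48, adjusted p = 0.00311), and ATG10, a conjugation enzyme, from 11.6 ± 0.230 to 8.48 ± 0.991 CPM (-0.46, adjusted p = 0.0253, 0.134 in DESeq2; SD, n = 2 throughout). By class, to be read against the same 20.5% and 17.3%, 13 of 36 further hydrolases rose and 3 fell, 2 of 16 membrane proteins rose and 0 fell (1 at an unadjusted p under 0.05), and 1 of 8 pump genes rose and 0 fell (0 at an unadjusted p under 0.05). Of 12 genes that control TFEB or dock mTORC1, 3 rose and 2 fell, and of 38 further autophagy genes 10 rose and 2 fell. Without DMSO replicate 1 or 2 the totals were 13 higher with 4 lower, and 13 higher with 2 lower.

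The 2 effects were then compared in a fit of all 10 libraries, as the change with RB98# minus the change in shRBPMS, each against its own controls. This fit used 1 estimate of the spread per gene for both experiments. Replicates 1 and 2 differed far more in shCtrl than in DMSO (chi-square per degree of freedom 188 against 2.23). Of 35 genes 3 were higher by this measure, against 4.79% of all genes, and 2 were lower, against 3.36% of all genes; with a term for the label set the counts were 11 and 6, against 22.5% and 22.4%. ATP6V0D1 had a difference of -1.10 (SE 0.13, adjusted p = 0.00489), from 0.96 in the knockdown and -0.12 with RB98#, and stayed called without any of the 10 libraries. WIPI1 had 1.22 (SE 0.28, adjusted p = 0.0347), ATP6V1A 1.12 (SE 0.25, adjusted p = 0.0323) and MAP1LC3B 1.08 (SE 0.25, adjusted p = 0.0347), each lower in shRBPMS and higher with RB98#. CTSA had -0.60 (SE 0.15, adjusted p = 0.0457). The calls of WIPI1, ATP6V1A and MAP1LC3B were made in 4 of the 10 fits that leave out a library (those that omit a shCtrl library or shRBPMS replicate 1), with differences from 0.92 to 1.26 for ATP6V1A, and that of CTSA in 2 of them. Calls were lost over all genes too. This test called 988 genes with all 10 libraries, and 434 and 457 without shRBPMS replicate 2 or 3. It called fewer still without a DMSO or RB98# library, which leaves 1 library in that group.

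TFE3 had a log2 change of 0.66 in the knockdown and 0.79 with RB98#, and the difference between them was 0.11 (SE 0.23, adjusted p = 0.826), which was not called. Of the 12 genes that rose with RB98#, 6 were also called higher in the blocked knockdown fit, which is 6 of its 11 rises: TFE3, LAMP2, GLA, NEU1, SQSTM1 and ULK1. With summed libraries TFE3 and GLA alone of these 6 kept the knockdown call, and the fit of group alone called none of them (unadjusted p under 0.05 for TFE3, LAMP2 and GLA). No share over all genes was computed for this overlap. Another 4 of the 12, ATP6V1A, GABARAPL2, MAP1LC3B and WIPI1, were called lower there, and PSAP and ATP6AP1 were not called. RRAGD, among the further genes, rose in the knockdown and fell with RB98#, with a difference of -1.65 (SE 0.25, adjusted p = 0.00908), and SMPD1 had -1.85 (SE 0.37, adjusted p = 0.0229).

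**Figure D5:**
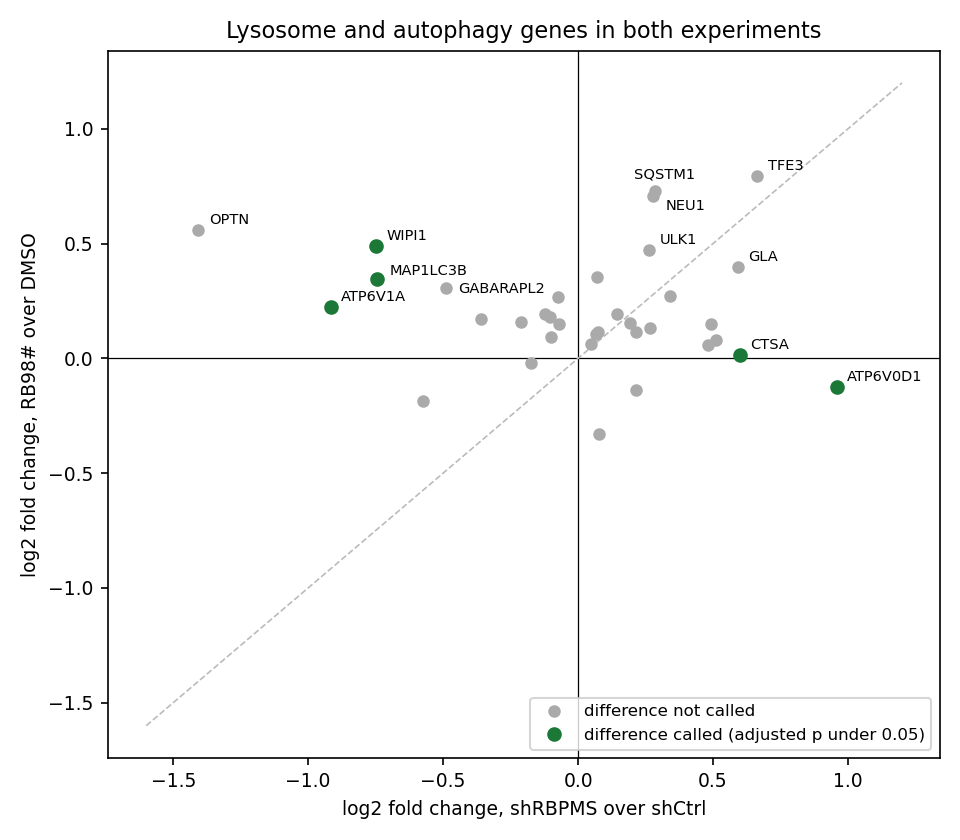
Log2 fold change of each listed gene in the knockdown (x axis, fit of group alone) and with RB98# (y axis); green points are the 5 genes whose difference between the experiments was called, grey points are the other 30, and the dashed line is equality. ATP6V1A, MAP1LC3B and WIPI1 lie at the upper left, CTSA and ATP6V0D1 at the lower right near or under 0 on the y axis, and TFE3 lies near the line.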

How the data were processed

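RNA-seq of Kasumi-1 cells gave 10 libraries in 2 experiments, each with its own table. The columns used are raw counts, per the file headers, and hold whole numbers whose totals differ between libraries; the authors deposited them without scaling. Each deposited table also carries the authors' own log2 fold change and p-value per gene, printed here only where named as theirs. HISAT2 2.2.1, fastp 0.22.0, DESeq2 1.32.0, featureCounts 2.0.1 and StringTie, with the human build GRCh38, stand in the submitters' processing notes without their steps; the annotation and strand setting of the counting are not given in the sources used here. The lowest summed count of a gene was 27 in the knockdown and 50 in the treatment table, so weaker genes could not be measured. Dropping 112 lines with a repeated identifier left 12325 of 12437 in the latter. A further 10 per-library columns, of a unit the labels do not state, were not used.

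Counts were tested with edgeR 4.0.16 (R 4.3.3), quasi-likelihood F test on group alone, after TMM scaling and filterByExpr (count 10, total 15), with Benjamini-Hochberg adjustment over all genes tested. A call is an adjusted p under 0.05. The difference between the 2 effects was tested in 1 fit of all 10 libraries over 12126 shared genes, with 1 estimate of the spread per gene shared by both experiments. CPM were scaled within each experiment, so levels set across experiments were scaled separately. Alternatives were DESeq2 1.42.0, its size factors, no filter, a replicate block, a label set term, replicates 2 and 3 summed, and each library left out; label set 2 alone was added after the data had been seen. The fit was tested on simulated counts with the same spread for every gene and no difference between label sets. That test therefore does not cover the label sets found here. Knockdown replicate numbers were taken to pair the libraries because each correlation of same-numbered deviations from the group means was over 0.1; nothing in the labels pairs replicates 2 and 3 by number. Totals of 13854281 to 34375418 counts a library limit genes near 1 CPM.

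The listed genes, their roles and the further pathway genes were chosen with earlier results of these data known. All listed genes are described; of the further pathway genes, up to 4 called genes per experiment and direction are named, those with the largest log2 fold change and a mean log2 CPM of at least 2. Not every gene that this rule names is reported here. Motifs were searched in RefSeq promoters (GRCh38.p14); exon lengths, overlaps and gene positions came from GENCODE v29 on GRCh38.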

Additional observations from a re-analysis of the deposited data

Results flagged for a closer look

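The change with RB98# and the change in shRBPMS differed for 5 of the listed genes in edgeR's quasi-likelihood test of the difference itself (RB98# over DMSO minus shRBPMS over shCtrl, adjusted over all genes tested). That test used 1 estimate of the spread per gene for both experiments. Of these 5 genes, the knockdown fit of group alone called only ATP6V0D1. The log2 difference was -1.10 for ATP6V0D1, -0.60 for CTSA, 1.12 for ATP6V1A, 1.08 for MAP1LC3B and 1.22 for WIPI1. ATP6V0D1 kept its call without any 1 of the 10 libraries, and the other 4 did not. In most of these fits the calls over all genes also fell. The experiments differ also in infection, selection and library depth, and the part of each in these differences was not tested. The 2 control groups are separate, with no library shared.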

How the results depend on the processing

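The knockdown counts depended on the design. Among the listed genes, 1 was called higher and 0 lower with group alone, 4 and 4 in DESeq2, 11 and 6 with the replicate block, 12 and 9 with a label set term, 6 and 5 when that term was used on summed replicates 2 and 3, and 14 and 9 in label set 2 alone. Leaving out a library gave 0 to 1 higher and 0 to 1 lower. Among the further pathway genes, 5 higher and 1 lower became 13 and 4 in DESeq2, 31 and 13 with the replicate block, 36 and 18 with the label set, 20 and 9 with summed libraries, and 41 and 20 in label set 2 alone; leaving out a library gave 0 to 3 higher and 0 to 2 lower. With RB98#, leaving out a library gave 9 to 16 listed genes higher and 0 to 1 lower, and 13 to 28 further genes higher and 2 to 8 lower; DESeq2 called 4 further genes lower against 7. The replicate block left 12 listed genes higher and 1 lower there (28 and 7 of the further genes); its numbers do not pair the libraries (correlation -0.0486). For the difference between experiments, the replicate block (label set term in the knockdown libraries) called 11 higher and 6 lower against 3 and 2, and leaving out a library gave 0 to 4 higher and 1 to 3 lower. Calls over all genes moved as well. Without 1 library the knockdown fit called 0 to 322 genes, against 320 with every library. The test of the difference called 434 to 1541 without 1 knockdown library, against 988, and fewer without a DMSO or RB98# library. Size factors and the absence of a filter changed no count of listed genes.

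In the knockdown the sign turned for TFEB with summed libraries (-0.0131) and, in label set 2 alone, for ATP6V1H (0.0354) and ATP6V1C1 (0.0824). It also turned when a library was left out for CTSZ (-0.15 to 0.21), BECN1 (-0.0217 to 0.11), ATP6V1C1 (-0.24 to 0.15), GABARAP (-0.58 to 0.22), HEXA (-0.10 to 0.20), TFEB (-0.36 to 0.44) and PSAP (-0.18 to 0.0047), and with RB98# for CTSC (-0.0722 to 0.0157), CTSA (-0.0504 to 0.0805), ATP6V1D (-0.0123 to 0.29), BECN1 (-0.0164 to 0.20), GABARAPL1 (-0.47 to 0.0469), ATG7 (-0.0197 to 0.12) and CTSL (-0.16 to 0.29). None of these was called on either side, and the cause of the changes was not tested.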
